A study of Mus musculus with 24 samples.

Results

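The genes described here are 49 named genes of the cell cycle and mitosis, picked by symbol from a list that spans replication licensing, the nucleotide supply, the cyclins and their kinase, the spindle checkpoint, the spindle motors and mitotic exit. Of these, 48 were measured, out of 17097 genes with a symbol of their own on the array. Ccnb1, a mitotic cyclin, had no single-gene probe set in the annotation used and was not analysed here. Transcripts were read from the spinal cords of 24 mice, 1 Affymetrix GeneChip a mouse, on the log2 scale after RMA summarisation by the authors. Passive experimental autoimmune encephalomyelitis (EAE), a model of multiple sclerosis, was set up by the transfer of myelin-reactive T cells. The groups were 4 Act1 KO recipients of MOG35-55-specific Th17 cells, 5 naive Act1 KO mice, 5 wild-type (WT) Th17 recipients, 5 WT recipients of MOG35-55-specific Th1 cells and 5 naive WT mice. By the protocols, recipients of every genotype were irradiated with 500 rad before the transfer and killed 12 days after it, and naive mice were left untreated, so that transfer and irradiation cannot be told apart in a comparison of recipients with naive mice. Act1 is the adaptor of the IL-17 receptor, and the design asks how Th1 and Th17 disease differ and what IL-17 signalling adds. The labels call the strains only wild type and Act1 ko and give no allele, and by the methods the animals were female littermates of 8 to 12 weeks. The treatment protocol places collection at disease onset and the design text at its peak.

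A cell that divides passes through G1, S phase, G2 and mitosis, and the genes of each step are transcribed in waves. The first wave, controlled by E2F factors, holds the helicase, the polymerase clamp and the enzymes that make deoxynucleotides. The second, controlled through promoter elements called the cell cycle genes homology region (CHR), which recruits the MuvB complex with MYB or FOXM1, and the CCAAT box, which NF-Y binds, holds the mitotic cyclins, kinases and motors. Adult spinal cord contains few dividing cells, among them oligodendrocyte progenitors, whereas activated T cells, monocytes and microglia can divide in inflamed tissue. Whole tissue was measured, so that more dividing cells and more transcript in each dividing cell cannot be told apart.

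Promoters of the list were searched for the elements just named, which the choice of the genes did not use. The windows are RefSeq sequences of build GRCm38.p6, of 300 bases, from 250 before to 50 after the annotated start, and 41 of the 49 genes have one in the table used, the first by position where a gene has several. Shown are 4 genes called higher in both WT comparisons, chosen because their windows hold the elements, and Ccne1, which was called in neither and whose window holds none. Capitals mark, on either strand, every CHR, spelled TTTGAA, every CCAAT box, spelled by its own letters, and every E2F word, spelled TTTCGCGC or TTTGGCGC or TTTCCCGC or TTTGCCGC, and each sequence runs 5′ to 3′ along the gene. Mki67 lies at chr7:135716330-135716629 on the minus strand, Cdk1 at chr10:69352863-69353162 on the minus strand, Ube2c at chr2:164769679-164769978 on the plus strand, Mcm6 at chr1:128359656-128359955 on the minus strand and Ccne1 at chr7:38107441-38107740 on the minus strand.
Mki67: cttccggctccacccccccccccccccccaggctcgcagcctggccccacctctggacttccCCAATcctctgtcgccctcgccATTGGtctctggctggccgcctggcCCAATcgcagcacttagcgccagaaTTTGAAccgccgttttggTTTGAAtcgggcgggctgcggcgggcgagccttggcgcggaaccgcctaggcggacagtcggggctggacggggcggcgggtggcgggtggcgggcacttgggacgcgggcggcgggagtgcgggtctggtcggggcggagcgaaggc
Cdk1: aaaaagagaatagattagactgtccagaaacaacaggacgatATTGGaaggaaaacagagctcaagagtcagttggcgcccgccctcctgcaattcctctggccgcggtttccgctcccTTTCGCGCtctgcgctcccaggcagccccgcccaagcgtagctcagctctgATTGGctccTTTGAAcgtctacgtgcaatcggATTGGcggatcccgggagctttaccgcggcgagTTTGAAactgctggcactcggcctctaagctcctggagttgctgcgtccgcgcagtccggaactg
Ube2c: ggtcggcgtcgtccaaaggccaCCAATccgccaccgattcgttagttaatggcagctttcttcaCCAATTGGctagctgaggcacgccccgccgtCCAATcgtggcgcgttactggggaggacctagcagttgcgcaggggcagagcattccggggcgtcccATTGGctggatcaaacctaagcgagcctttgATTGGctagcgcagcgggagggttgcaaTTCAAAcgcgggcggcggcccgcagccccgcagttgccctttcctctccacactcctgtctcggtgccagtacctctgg
Mcm6: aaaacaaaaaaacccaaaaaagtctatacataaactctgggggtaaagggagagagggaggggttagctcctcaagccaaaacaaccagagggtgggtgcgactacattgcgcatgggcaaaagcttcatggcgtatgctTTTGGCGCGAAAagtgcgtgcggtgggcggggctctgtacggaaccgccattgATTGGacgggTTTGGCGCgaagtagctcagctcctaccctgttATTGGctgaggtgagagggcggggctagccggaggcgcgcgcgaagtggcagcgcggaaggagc
Ccne1: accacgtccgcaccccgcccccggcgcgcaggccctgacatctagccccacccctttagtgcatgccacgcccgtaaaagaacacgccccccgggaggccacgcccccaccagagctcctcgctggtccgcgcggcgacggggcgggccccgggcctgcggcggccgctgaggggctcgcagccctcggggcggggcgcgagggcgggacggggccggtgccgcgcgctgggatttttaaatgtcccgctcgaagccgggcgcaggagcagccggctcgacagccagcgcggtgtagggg
The Mki67 window held 2 CHR words and 3 CCAAT boxes, that of Cdk1 held 2 CHR words, 3 CCAAT boxes and 1 E2F word, and that of Ube2c held 1 CHR word and 6 CCAAT boxes, of which a pair overlaps. The window of Mcm6, a helicase subunit, held 3 E2F words, of which a pair overlaps, and 2 CCAAT boxes but no CHR word. Over the list, a CHR word was found in 21 of 41 windows (51.2%), against 18.1% of 27025 windows of all genes. A CCAAT box was found in 73.2% of the members' windows against 37.8% of all windows, both elements together in 48.8% against 7.01%, and an E2F word in 12.2% against 2.34%. The 5 members with an E2F word were Cdk1, Cdc6, Mcm3, Mcm5 and Mcm6. Words of different elements overlapped at 1 place. Elements and calls did not go together for every member. Of the 35 members with a window that were called higher in WT Th17 recipients, 19 had a CHR word and 27 a CCAAT box, and of the 5 not called 2 had both, namely Cdc45 and Cenpa. Birc5, Melk, Mad2l1, Nusap1, Tk1 and Tyms were called higher and had none of these words, as in the window of Ccne1. This says nothing about other positions or spellings.

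Array medians lay between 3.464 and 3.572, and same-group arrays correlated at 0.986 to 0.997. A value near or under these medians is close to background. In naive WT mice 38 of 48 members had a mean below 3.464, against 13 of 48 in WT Th17 recipients, so that a difference from such a level is a lower bound. Traf3ip2, the gene of Act1, averaged 5.69 in Th17 recipients and 5.56 in naive mice labelled Act1 KO, against 5.38 in WT Th17 recipients and 4.29 in naive WT mice, and so did not show the loss that the label names. Neither the allele nor where the probes lie relative to it could be read from labels or methods, and the genotype is used below as labelled. Differences were tested with limma over all 17097 genes in 1 fit, two-sided, and called at a Benjamini-Hochberg adjusted p under 0.05.

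**Figure D1:**
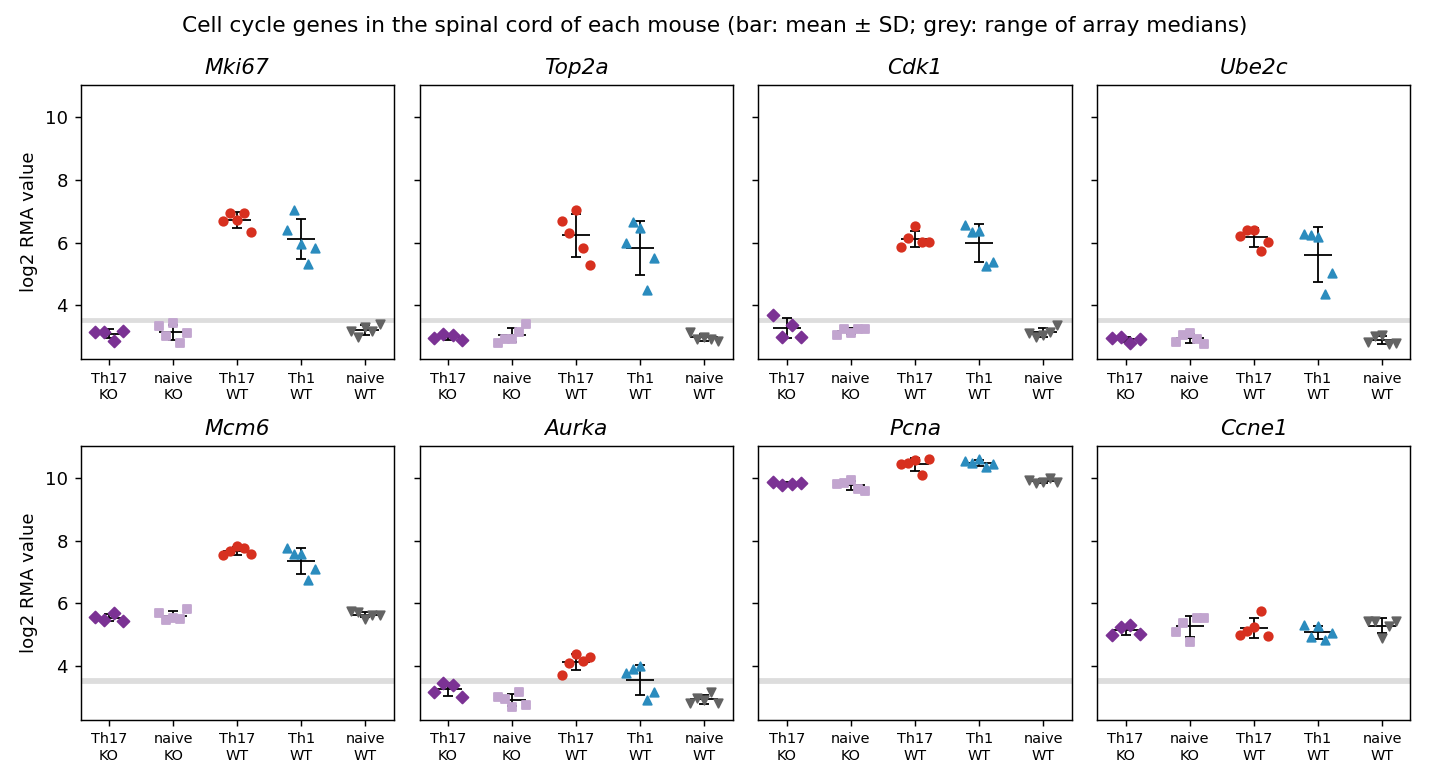
Log2 RMA values of 8 members (y axis) in each of the 24 spinal cords, by group (x axis). Points are mice, bars the mean ± SD and the grey band the range of array medians (3.464 to 3.572). Mki67, Top2a, Cdk1, Ube2c and Mcm6 stand above naive mice in every WT recipient and near the naive level in Th17 recipients labelled KO, whereas Ccne1 overlaps in all 5 groups.

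In WT spinal cords, Th17 recipients had 41 of the 48 members (85.4%) higher than naive mice and none lower, where 18.0% of all genes were called higher and 25.5% lower. The median difference of the members was 1.00 on the log2 scale, against −0.05 for all genes, and 24 members were at least 2-fold higher. The values of 38 members lay above those of naive mice with no overlap, which held for 15.0% of all genes, while 20.0% lay below. In Th1 recipients 40 of 48 (83.3%) were higher than in naive mice and none lower, where 16.7% of all genes were called higher and 24.1% lower. Their median difference was 0.75 against −0.06 for all genes, 19 were at least 2-fold higher and 32 did not overlap with naive mice (14.1% of all genes). Both comparisons use the same 5 naive mice. With arrays centred on 68 ribosomal protein genes, which moves the median of all genes by −0.52 in Th17 and −0.55 in Th1 recipients, the counts were 28 higher and 6 lower in Th17 and 21 higher and 8 lower in Th1 recipients, where 15404 and 15526 of the 17097 genes were called in either direction. Of the members called higher, Melk, Cdkn3, Cdc6, Rrm1, Aurkb, Ttk, Cdca8 and Kif4 then lay below 0 in Th17 recipients, and Melk, Cdkn3, Rrm1, Aurkb, Ttk, Cdca8, Kif11, Kif20a, Kif2c and Kif4 in Th1 recipients.

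Mki67 had the largest difference of the members in both WT comparisons. Mki67, whose protein coats mitotic chromosomes and marks cells in cycle, read 6.69, 6.94, 6.72, 6.93 and 6.32 in WT Th17 recipients, 6.40, 7.04, 5.95, 5.33 and 5.83 in Th1 recipients and 3.19, 3.0, 3.32, 3.19 and 3.41 in naive WT mice. No recipient came near a naive mouse, and the difference from naive mice was 3.50 in Th17 recipients (standard error 0.20, limma adjusted p = 4.82e-14) and 2.89 in Th1 recipients (0.20, adjusted p = 3.17e-12). In Th17 recipients this is at least 11.3-fold, since the naive level is background. Top2a, the topoisomerase that untangles replicated DNA, read 6.70, 6.29, 7.04, 5.83 and 5.29 in Th17 recipients, 6.0, 6.66, 6.46, 4.47 and 5.51 in Th1 recipients and 2.87 to 3.15 in naive mice. Its spread among recipients was wide (SD 0.69 in Th17 and 0.87 in Th1 recipients, against 0.11 in naive mice), yet the lowest recipient stood well above the highest naive mouse. The 2 other Top2a probe sets read dimmer and differed by 0.12 and 0.30 between Th17 recipients and naive mice.

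Among cyclins, their kinase and regulators, 5 of 10 measured members were higher in either kind of recipient. Cdk1, the kinase that drives entry into mitosis, read 5.86 to 6.53 in Th17 recipients, 5.26 to 6.55 in Th1 recipients and 2.99 to 3.36 in naive mice, a difference of 2.98 in Th17 (standard error 0.19, adjusted p = 8.6e-13) and 2.85 in Th1 recipients. Ccna2, the cyclin of S phase and G2, averaged 5.74 ± 0.47 in Th17 recipients, 5.42 ± 0.73 in Th1 recipients and 3.11 ± 0.21 in naive mice (SD, n = 5 each). Ccnb2, a mitotic cyclin, averaged 4.73 ± 0.37 in Th17 recipients, 4.44 ± 0.45 in Th1 recipients and 3.25 ± 0.10 in naive mice, with 1 Th17 recipient at 4.08 and the other 4 between 4.80 and 5.00. Melk, a kinase of proliferating progenitors, rose by 0.51 in Th17 and 0.41 in Th1 recipients. The other 5 did not pass the test in either comparison. Ccne1, the cyclin that opens S phase, read 4.99, 5.10, 5.24, 5.74 and 4.96 in Th17 recipients, 5.30, 4.92, 5.28, 4.83 and 5.05 in Th1 recipients and 5.45, 5.42, 4.89, 5.28 and 5.42 in naive mice. These groups overlapped throughout at a level well above the array medians, with a difference of −0.09 in Th17 recipients (95% interval −0.40 to 0.23, adjusted p = 0.713) and −0.22 in Th1 recipients (adjusted p = 0.295). Ccne2, the checkpoint kinase Chek1 and the transcription factors E2f1 and Foxm1 differed by 0.07, −0.03, 0.14 and 0.15 in Th17 recipients, from naive levels of 2.96, 3.0, 3.81 and 3.01. A dimmer second probe set of E2f1 differed by 0.50 in Th17 and 0.41 in Th1 recipients, so that the probe sets of this gene disagree.

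**Figure D2:**
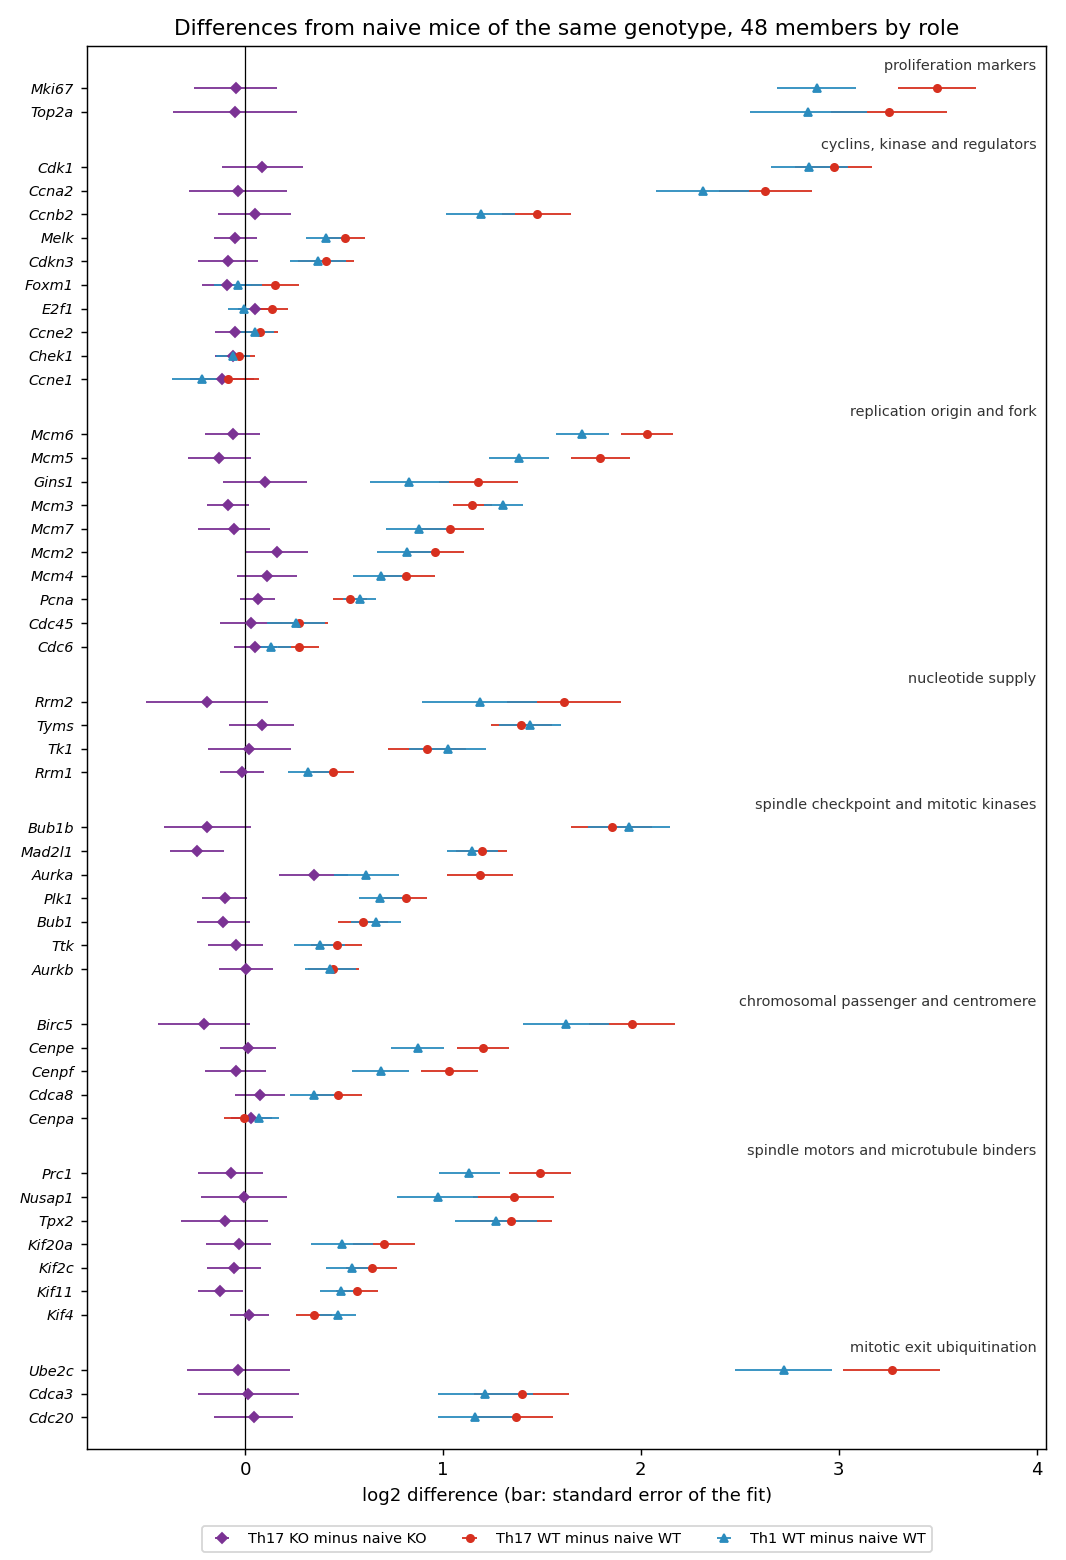
Log2 difference (x axis) of each of the 48 measured members (y axis, grouped by role and ordered by the WT Th17 difference) from naive mice of the same genotype. Points are fitted differences and bars their standard errors, for Th17 recipients labelled KO (diamonds), WT Th17 recipients (circles) and WT Th1 recipients (triangles). Differences in KO recipients lie between −0.24 and 0.35, and those of WT Th17 recipients reach 3.50.

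Of 10 genes of replication origins and forks, 9 were higher in Th17 and 8 in Th1 recipients. The 6 subunits of the Mcm2 to Mcm7 helicase, which unwinds DNA at the fork, were higher in both kinds of recipient, each called in its own comparison. Mcm6 read 7.55, 7.67, 7.84, 7.75 and 7.56 in Th17 recipients, 7.77, 7.56, 7.58, 6.75 and 7.08 in Th1 recipients and 5.51 to 5.74 in naive mice. It was well above background in every group, with a difference of 2.03 in Th17 (standard error 0.13, adjusted p = 8.04e-13) and 1.70 in Th1 recipients (0.13, adjusted p = 3.65e-11). Mcm5 rose by 1.80 in Th17 and 1.39 in Th1 recipients, Mcm3 by 1.15 and 1.30, Mcm7 by 1.04 and 0.88, Mcm2 by 0.96 and 0.82, and Mcm4 by 0.81 and 0.69. The products of the 6 genes form a ring. Pcna, the sliding clamp of the polymerase, had the highest values of the list, with 10.43 ± 0.20 in Th17 recipients, 10.48 ± 0.09 in Th1 recipients and 9.90 ± 0.07 in naive mice (differences 0.53 in Th17 and 0.58 in Th1 recipients). Gins1, a helicase partner, rose by 1.18 and 0.83. Cdc45, which joins the helicase at firing, averaged 3.44 ± 0.26 in Th17 recipients, 3.43 ± 0.31 in Th1 recipients and 3.17 ± 0.14 in naive mice and was not called (adjusted p = 0.149 and 0.181). Cdc6, which loads the helicase, was called in Th17 recipients with a difference of 0.27 (adjusted p = 0.0333) but not in Th1 recipients (0.13, adjusted p = 0.343). Its means, 2.97, 2.83 and 2.70, lay below the array medians, and the Th17 call was lost without Th17 recipient 1, 3 or 5 or naive mouse 1, 2 or 3 (adjusted p = 0.0587 to 0.103 over these 6 fits).

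All 4 genes of the nucleotide supply were higher in both kinds of recipient. Rrm2, the regulated subunit of ribonucleotide reductase, read 5.10, 4.86, 5.65, 4.10 and 3.74 in Th17 recipients, 4.12, 5.08, 5.15, 3.42 and 3.55 in Th1 recipients and 2.98 to 3.14 in naive mice. The recipients spread widely in either group, and each stood above the naive range (differences 1.61 in Th17 and 1.19 in Th1 recipients, standard error 0.29 for each). Rrm1, the other subunit, was brighter and moved less, by 0.45 in Th17 and 0.32 in Th1 recipients. Without Th1 recipient 1 or naive mouse 4 the Th1 call of Rrm1 was lost (adjusted p = 0.0555 and 0.05001). Tk1, the thymidine kinase of S phase, rose by 0.92 and 1.02. Tyms, thymidylate synthase, rose by 1.40 and 1.44 on a probe set marked as shared between transcripts, and its 4 other probe sets, all dim, differed by 0.15 or less, so that its value is uncertain. With that probe set left out, its difference was 0.15 (adjusted p = 0.170) in Th17 and 0.09 (adjusted p = 0.433) in Th1 recipients.

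The spindle checkpoint, which holds cells until chromosomes are attached, and the mitotic kinases gave 7 of 7 in each comparison. Bub1b, a checkpoint kinase, read 4.97, 5.31, 5.44, 5.86 and 4.96 in Th17 recipients, 5.71, 5.79, 5.63, 4.60 and 5.24 in Th1 recipients and 3.17 to 3.85 in naive mice (differences 1.85 in Th17 and 1.94 in Th1 recipients). Mad2l1, another checkpoint protein, rose by 1.20 and 1.15 and the kinase Plk1 by 0.81 and 0.68. Aurka, the kinase of spindle poles, read 3.72, 4.09, 4.39, 4.15 and 4.28 in Th17 recipients, 3.79, 3.89, 4.0, 2.92 and 3.16 in Th1 recipients and 2.82 to 3.16 in naive mice. Th1 recipients 4 and 5 did not exceed the highest naive mouse, whereas every Th17 recipient did (differences 1.19 in Th17 and 0.61 in Th1 recipients). Ttk, another checkpoint kinase, lost its Th1 call without Th1 recipient 1 or naive mouse 3 (adjusted p = 0.0854 and 0.0624).

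Among the chromosomal passenger and centromere genes, Birc5, or survivin, read 5.37, 5.35, 5.49, 5.25 and 5.27 in Th17 recipients, 5.50, 5.49, 5.58, 3.86 and 4.63 in Th1 recipients and 3.07 to 3.64 in naive mice. Th1 recipients 4 and 5 were the lowest of their group and still above every naive mouse (differences 1.95 in Th17 and 1.62 in Th1 recipients). Cenpe, a kinetochore motor, rose by 1.20 and 0.87, Cenpf, a kinetochore protein, by 1.03 and 0.68, and Cdca8, of the passenger complex, by 0.47 and 0.35. Dimmer probe sets differed in Th17 recipients by 0.06 for Cenpe and by 0.02 and 0.16 for Cenpf. The Th1 call of Cdca8 was lost without Th1 recipient 3 or naive mouse 1, 2 or 3 (adjusted p = 0.0580 to 0.0764 over these 4 fits). A dimmer probe set of Cdca8, marked as shared between transcripts, differed more, by 0.97 in Th17 and 0.97 in Th1 recipients. Cenpa, the centromeric histone, was flat on the probe set that represents it (3.09 ± 0.11 in Th17 recipients, 3.17 ± 0.15 in Th1 recipients and 3.10 ± 0.17 in naive mice). Its other probe set, slightly dimmer over all arrays, averaged 3.63, 3.42 and 2.53 in these groups, a difference of 1.10 and 0.89, so that the 2 probe sets disagree and only the rule for brightness kept Cenpa among the genes that were not called.

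The spindle motors and microtubule binders gave 7 of 7 higher in each comparison. Prc1, which bundles the midzone of the spindle, read 5.04, 4.54, 4.56, 4.10 and 4.25 in Th17 recipients, 4.61, 4.23, 4.33, 3.78 and 3.75 in Th1 recipients and 2.74 to 3.32 in naive mice (differences 1.49 in Th17 and 1.13 in Th1 recipients). Nusap1, which binds spindle microtubules, rose by 1.36 and 0.97 and Tpx2, which activates Aurka at the spindle, by 1.35 and 1.27, while Kif11, the motor that separates spindle poles, rose by 0.57 and 0.48. The dimmer probe set of Nusap1 differed by −0.09 and 0.02 and that of Tpx2 by 0.17 and 0.20. Those of Prc1 and Kif11 differed by 1.27 and 0.82 and by 0.46 and 0.34. The group that controls mitotic exit through ubiquitin gave 3 of 3 in each comparison. Ube2c, the conjugating enzyme of the anaphase-promoting complex, read 6.22, 6.41, 6.41, 5.74 and 6.02 in Th17 recipients, 6.27, 6.24, 6.18, 4.35 and 5.02 in Th1 recipients and 2.75 to 3.04 in naive mice. No recipient overlapped the naive range, and the difference was 3.27 in Th17 (standard error 0.24, adjusted p = 1.54e-11) and 2.72 in Th1 recipients. Cdc20, the activator of that complex, rose by 1.37 and 1.16 and Cdca3, which helps to degrade the mitotic brake WEE1, by 1.40 and 1.21. Cdkn3, a phosphatase that acts on cyclin-dependent kinases, had a Th1 difference of 0.37 (adjusted p = 0.0398), whose call was lost without Th1 recipient 2 or 3 or naive mouse 1, 2, 4 or 5 (adjusted p = 0.0574 to 0.154 over these 6 fits). Its Th17 call (0.41) was lost without Th17 recipient 3 (adjusted p = 0.0950).

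Between WT Th17 and Th1 recipients, 0 of 48 members were called, where 3.0% of all genes were (1.91% higher and 1.09% lower). No member's values separated the groups, which 1.93% of all genes did with Th17 recipients higher. At an unadjusted limma p under 0.05 there were 8 members, where 2051 of 17097 genes were. By the exact permutation test over mice there was 1, Aurka, and the share of all genes was not computed for that test. Aurka came closest, at 4.12 ± 0.26 in Th17 and 3.55 ± 0.48 in Th1 recipients (difference 0.57, 95% interval 0.23 to 0.91, limma adjusted p = 0.0599), followed by Mki67 (0.61, interval 0.20 to 1.02, adjusted p = 0.117) and Mcm5 (0.41, interval 0.10 to 0.72, adjusted p = 0.188). Aurka passed without Th1 recipient 1, 2 or 3 or Th17 recipient 1 (adjusted p = 0.0205 to 0.0457 over these 4 fits), Mki67 without Th1 recipient 2 (adjusted p = 0.00283) and Cenpf without Th17 recipient 4 (adjusted p = 0.0463). For others the interval was narrow around 0, as for Pcna (−0.22 to 0.13) and Mcm3 (−0.36 to 0.05), while those of Ube2c (0.04 to 1.05) and Top2a (−0.20 to 1.01) were wide. Of the 48 differences 40 were positive, with a median of 0.13. Without Th1 recipients 4 and 5, which stand apart below, 0 members were called and the median was −0.04. Leaving out the lowest Th1 mice builds in a fall of this median, so that it cannot show whether the groups differ. Plate rows were inferred from a code in the sample titles. In the 3 rows that hold both groups, with 1 array of each, 6 members were higher in Th17 recipients in every row and 2 lower. With 3 pairs of mice, members without any difference can go the same way in every row. The share of all genes was not computed there.

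**Figure D3:**
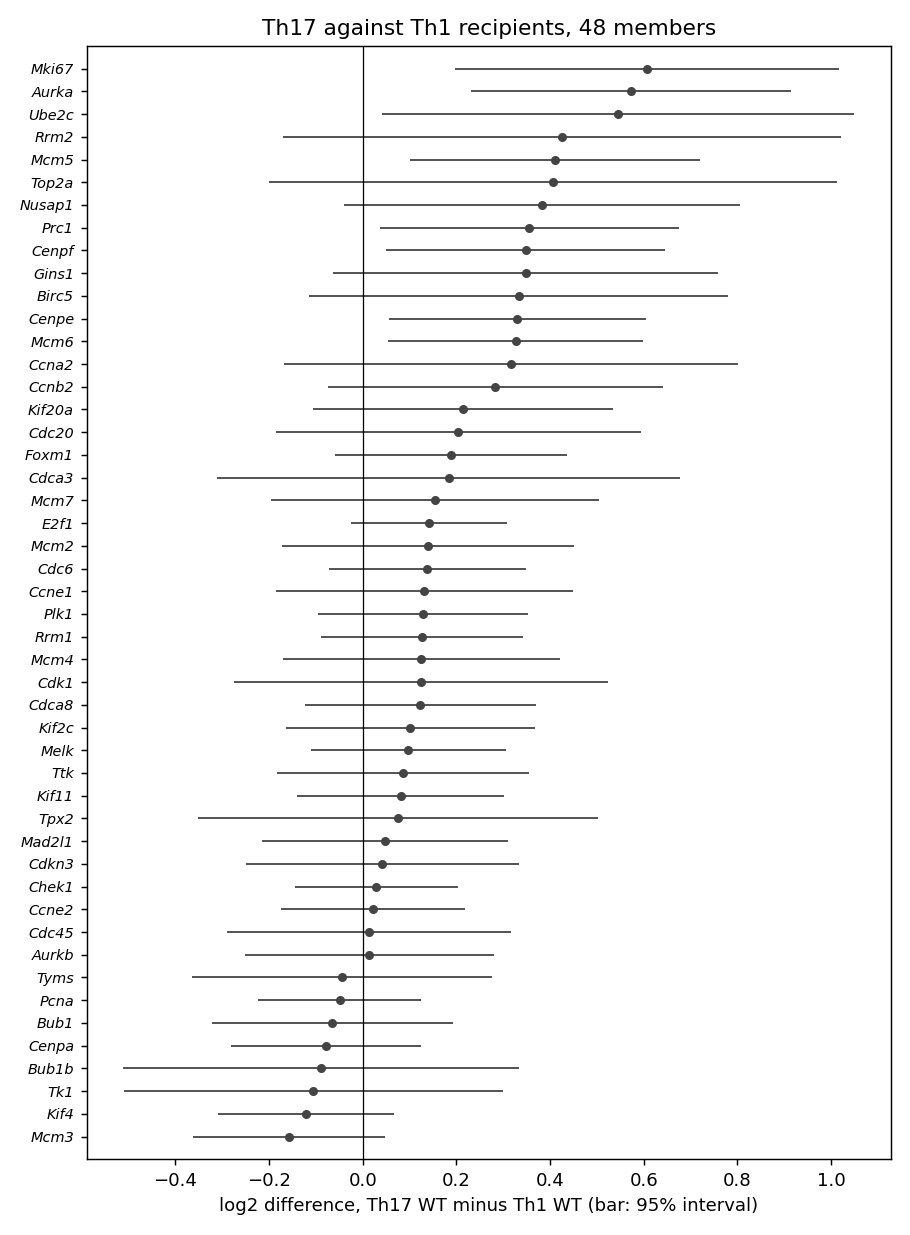
Log2 difference between WT Th17 and WT Th1 recipients (x axis) of each member (y axis). Points are fitted differences and bars 95% intervals from limma. Mki67, Aurka and Ube2c have the highest values, 0.61, 0.57 and 0.55, and no member passed after adjustment over all genes.

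The Th1 recipients were not alike. The median over the 48 members was 4.14, 4.34 and 4.26 in Th1 recipients 1 to 3, but 3.70 in recipient 4 and 3.69 in recipient 5, against 4.08 to 4.56 in WT Th17 recipients and 3.06 to 3.13 in naive WT mice. Recipient 4 had the lowest Th1 value for 38 of 48 members, and only 32 of its members exceeded every naive mouse, against 39 to 43 in the other Th1 and 42 to 44 in the Th17 recipients. Among Th17 recipients, recipient 3 had the highest value for 23 members. The shares of all genes were not computed for these counts of ranks and of members above naive mice. The median SD of a member was 0.254 in Th17 recipients, 0.350 in Th1 recipients and 0.131 in naive mice, where that of all genes was 0.152, 0.143 and 0.130. Without Th1 recipients 4 and 5, 40 members were still called higher than in naive mice. The median difference was then 1.01, a rise that leaving out the lowest mice builds in. T cell markers (8 of 10 measured, among them Cd3e and Cd4) also read lowest in these recipients, with a median of 4.98 and 5.28, against 5.42, 5.72 and 5.51 in the other Th1 and 5.79 to 6.0 in the Th17 recipients. T cell markers were not alone in this. Neutrophil markers read 5.98, 5.18, 4.85, 3.77 and 3.86 in Th1 recipients 1 to 5, and endothelial markers 5.35, 5.41, 5.2, 4.37 and 4.77. Microglia markers read highest in recipients 4 and 5, at 6.635 and 6.66, against 5.9 to 6.43 in the other Th1 recipients. Markers of oligodendrocyte progenitors did too, at 6.09 and 5.88, against 5.61 to 5.7. Monocyte and macrophage markers (9 of 10 measured) read 7.87, 7.35, 8.12, 7.53 and 7.64 in Th1 recipients 1 to 5. The part of these cell types in the difference was not tested.

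In mice labelled Act1 KO, Th17 recipients did not show the increase. The test called 0 of 48 members between Th17 recipients and naive mice, and 0.0% of all genes (0 of 17097 by limma and by the exact Mann-Whitney test after adjustment, with 1070 and 521 at an unadjusted p under 0.05). No member passed limma at an unadjusted p under 0.05 either. Mki67 read 3.16, 3.16, 2.86 and 3.17 in Th17 recipients, against 3.33, 3.02, 3.43, 2.80 and 3.10 in naive mice (difference −0.05, 95% interval −0.48 to 0.39). Top2a read 2.94, 3.07, 3.06 and 2.89 in Th17 recipients, against 2.80, 2.92, 2.93, 3.16 and 3.39 in naive mice. Both overlapped at background. Cdk1 read 3.69, 3.0, 3.38 and 3.0 in Th17 recipients, against 3.05, 3.25, 3.12, 3.25 and 3.24 in naive mice, with the highest and the lowest value both among recipients. Mcm6, which is well above background, read 5.56, 5.48, 5.69 and 5.42 in Th17 recipients, against 5.69, 5.48, 5.52, 5.49 and 5.82 in naive mice (difference −0.06, interval −0.35 to 0.23). Over the members the differences lay between −0.24 and 0.35, with a median of −0.04, and the upper 95% bound was under 0.5 for 42 members and at most 0.71. The largest was that of Aurka, at 3.16, 3.45, 3.40 and 3.0 in Th17 recipients, against 3.0, 2.93, 2.68, 3.17 and 2.74 in naive mice (0.35, adjusted p = 0.805). Rrm2 was the 1 member whose values did not overlap in the lower direction (0.684% of all genes), at 2.80 to 2.90 in Th17 recipients against 2.93 to 3.14 in naive mice (difference −0.19, limma adjusted p = 0.967). By the exact permutation test over mice, 2 members, Rrm2 and Bub1, were under 0.05 before adjustment, and the share of all genes was not computed for that test.

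**Figure D4:**
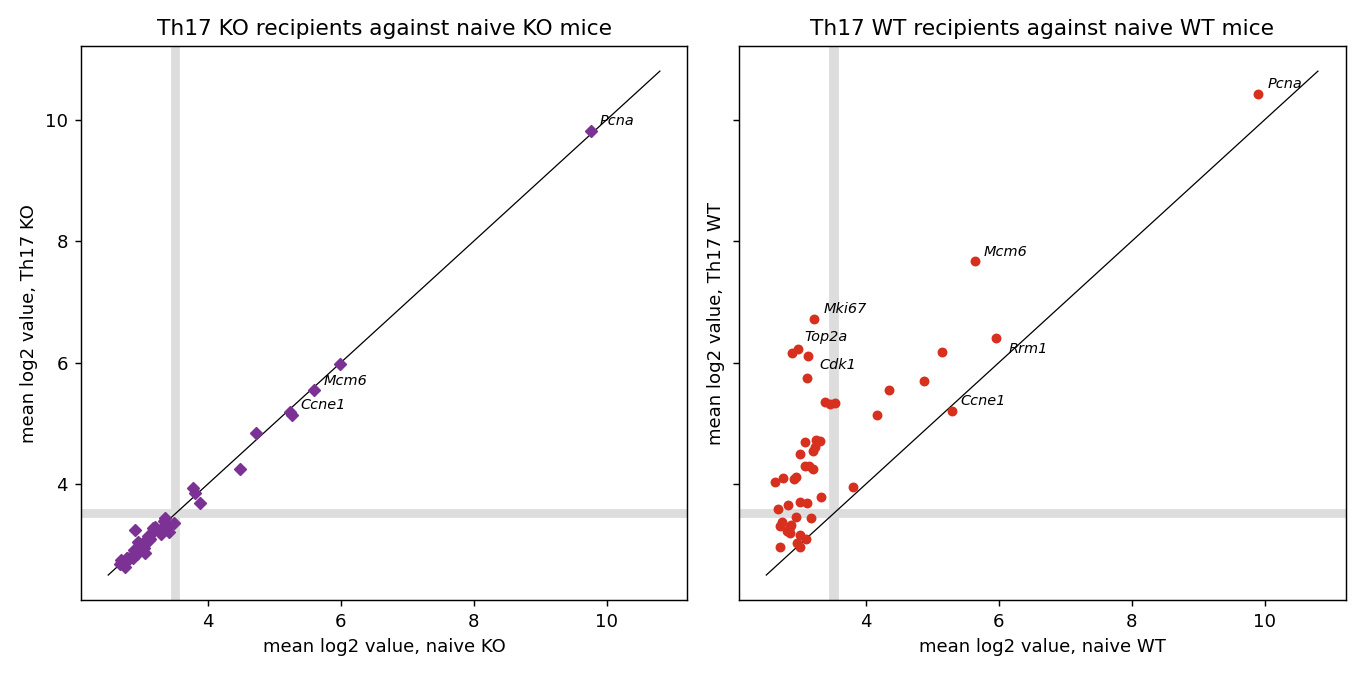
Mean log2 value of each member in Th17 recipients (y axis) against naive mice (x axis), for mice labelled KO (left) and WT mice (right). Points are genes, the line marks equal values and grey bands the range of array medians. KO points follow the line, and 41 of the 48 WT points were called above it.

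Set directly against WT Th17 recipients, KO Th17 recipients had 39 of 48 members lower and 0 higher, where 17.6% of all genes were called lower and 24.6% higher. The values of 36 members did not overlap (15.1% of all genes). In the test of the difference between the responses, which subtracts the naive mice of each genotype, 36 members were lower in KO mice and none higher, where 13.8% of all genes were lower and 18.2% higher. The response of Mki67 differed by −3.54 in KO mice (standard error 0.29, adjusted p = 1.8e-10), that of Top2a by −3.30, that of Ube2c by −3.30, that of Cdk1 by −2.89 and that of Mcm6 by −2.09. Both tests share the WT Th17 recipients with the WT comparison above. A term was added for the row of the array plate, which is inferred from a code in the sample titles and not named by them. The count in the test of responses was then 21, where 3973 of 17097 genes were called in either direction, against 5479 without it. Centred on ribosomal protein genes, 28 members were lower and 5 higher in KO than in WT Th17 recipients, and 24 lower and 4 higher in the test of responses, where 14901 and 13551 of all genes were called in either direction. KO recipients and naive KO mice shared no plate row, so that row and group cannot be told apart there. The 1 row shared by KO and WT Th17 recipients holds 1 array of each, and 46 of 48 members were lower in the KO array. This describes 1 pair of mice without a test, and the share of all genes was not computed there. Between naive mice of both genotypes 0 members were called (0.585% of all genes). At an unadjusted limma p under 0.05 there were 2, where 1250 of 17097 genes were. These were Mcm2 (3.78 ± 0.18 in KO, 4.17 ± 0.17 in WT, difference −0.39, adjusted p = 0.504) and Bub1b (3.88 ± 0.34 in KO, 3.46 ± 0.28 in WT, difference 0.43, adjusted p = 0.681).

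Some lists of other cells and states moved with the cell cycle genes and others did not. Over all genes 18.0% were called higher and 25.5% lower in WT Th17 recipients, and 16.7% and 24.1% in Th1 recipients. In WT mice all 8 T cell and all 9 monocyte and macrophage markers measured were higher in Th17 and in Th1 recipients than in naive mice, whereas in KO Th17 recipients 0 of either were. The median of the T cell markers was 2.92 to 3.06 in KO Th17 recipients, 2.92 to 3.14 in naive KO mice, 5.79 to 6.0 in WT Th17 recipients, 4.98 to 5.72 in Th1 recipients and 2.87 to 3.03 in naive WT mice. That of the monocyte and macrophage markers was 2.76 to 2.98 in KO Th17 recipients, 2.84 to 3.14 in naive KO mice, 7.99 to 8.51 in WT Th17 recipients, 7.35 to 8.12 in Th1 recipients and 2.85 to 3.25 in naive WT mice. In KO recipients both medians thus lay under the array medians, as in naive mice. Targets of p53, which respond to DNA damage, had 7 of 10 higher and 1 lower in WT Th17 recipients. They had 6 higher and 1 lower in Th1 recipients and 0 of 10 called in KO Th17 recipients, where 0.0% of all genes were. Recipients of every genotype were irradiated by the same protocol, and the part of irradiation was not tested. Markers of oligodendrocyte progenitors, a dividing cell type of the cord itself, had 1 of 7 higher and 4 lower in WT Th17 recipients, and 0 higher and 5 lower in Th1 recipients. Neutrophil markers had 5 of 6 higher in Th17 and 4 in Th1 recipients. The median of the microglia markers was 5.9 to 6.3 in WT Th17 recipients and 4.7 to 5.5 in naive WT mice. That of the astrocyte markers was 7.7 to 8.0 in WT Th17 recipients and 7.9 to 8.0 in naive WT mice. Markers of mature oligodendrocytes, the defining cells of the white matter, read 10.74 to 11.21 in KO and 10.59 to 10.75 in WT Th17 recipients. They read 10.85 to 11.12 in naive WT mice, so that transcripts of these cells were present. Markers of motor neurons and spinal cord had a median of 4.1 to 5.0 in WT Th17 and 4.7 to 5.1 in Th1 recipients. Their median was 6.2 to 6.6 in naive WT mice, 5.7 to 6.1 in KO Th17 recipients and 5.7 to 6.4 in naive KO mice. The part of these cells in the cell cycle values was not tested.

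**Figure D5:**
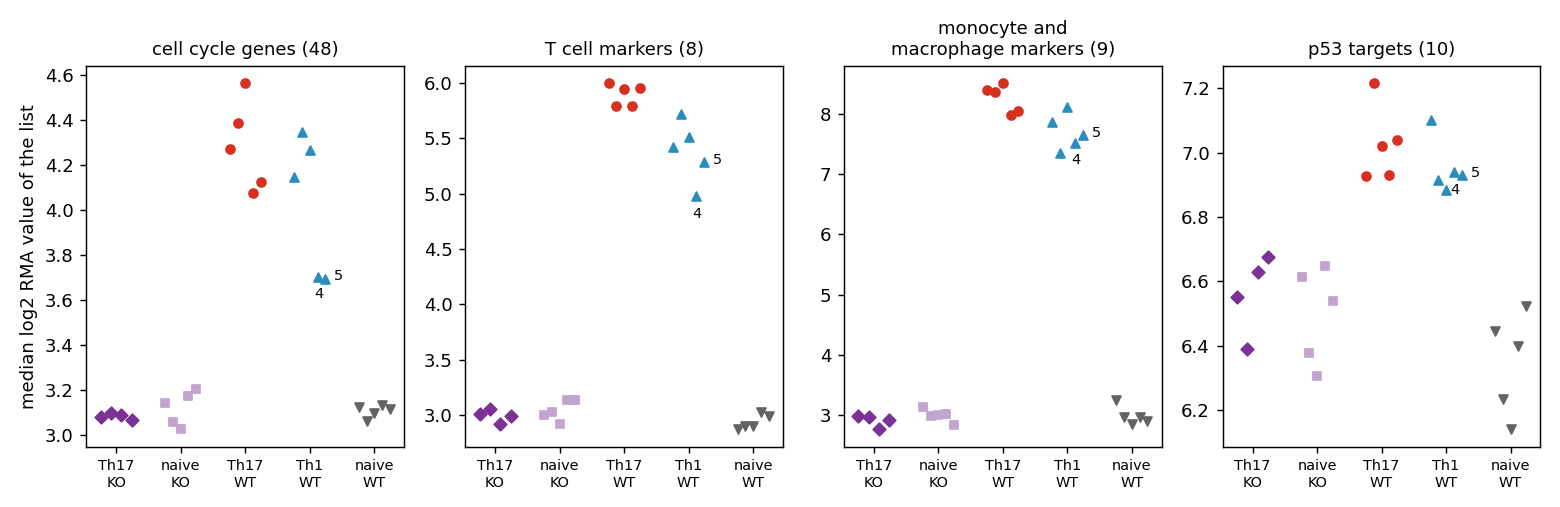
Median log2 RMA value (y axis) over 48 cell cycle genes, 8 T cell markers, 9 monocyte and macrophage markers and 10 p53 targets in each mouse (points), by group (x axis), each panel with its own scale. Th1 recipients 4 and 5 are numbered. The cell cycle median is 3.07 to 3.10 in KO Th17 recipients and 4.08 to 4.56 in WT Th17 recipients.

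Against naive mice, more of the cell cycle genes outside the 49 were higher than lower in WT recipients. Of 79 measured, 45 were higher and 7 lower in WT Th17 recipients (median 0.37), where 18.0% of all genes were higher and 25.5% lower. In Th1 recipients 40 were higher and 9 lower (median 0.33), where 16.7% of all genes were higher and 24.1% lower. Between KO Th17 recipients and naive KO mice 0 were called, where 0.0% of all genes were. The G1 cyclins and kinases were higher in 6 of 6 in both WT comparisons, unlike the E-type cyclins of the list. Ccnd1, a D-type cyclin that senses growth signals, read 8.65 to 8.85 in Th17 recipients, 8.39 to 8.68 in Th1 recipients and 7.41 to 7.62 in naive mice (differences 1.26 in Th17 and 1.07 in Th1 recipients). Ccnd3 rose by 1.08 and 0.83, Ccnd2 by 0.88 and 1.08 and their partner kinase Cdk6 by 2.11 and 2.11. Cdt1, which loads the helicase with Cdc6, averaged 6.76 ± 0.16 in Th17 recipients, 6.51 ± 0.47 in Th1 recipients and 4.36 ± 0.23 in naive mice, and its difference (2.40 and 2.15) was the largest increase of these 79 genes in both comparisons. Spc25, of the kinetochore, rose by 1.87 and 1.60 and Rbl1, a pocket protein that restrains E2F, by 1.39 and 1.73.

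The inhibitors split. Cdkn1a, or p21, a p53 target that stops the cycle, read 8.55, 8.71, 8.81, 8.85 and 9.16 in Th17 recipients, 9.09, 8.70, 8.83, 8.07 and 8.18 in Th1 recipients and 6.61 to 7.04 in naive mice (differences 1.97 in Th17 and 1.72 in Th1 recipients). Cdkn2c and Cdkn2b, which block the kinases of the D-type cyclins, rose by 0.81 and 0.83 and by 0.39 and 0.43. Cdkn1c, or p57, a brake kept on in resting cells, read 3.13, 2.88, 2.86, 2.95 and 3.05 in Th17 recipients, 2.92, 3.32, 3.36, 3.41 and 3.14 in Th1 recipients and 5.16, 5.02, 5.41, 4.97 and 5.21 in naive mice. It fell by 2.18 in Th17 and 1.92 in Th1 recipients (adjusted p = 2.67e-12 and 3.97e-11), to background, so that the fall is a lower bound, and no recipient came near a naive mouse. Cdkn2d fell by 0.34 in Th1 recipients (adjusted p = 0.0293), differed by −0.05 in Th17 recipients (adjusted p = 0.810), and between the recipients by 0.29 (adjusted p = 0.297). Dut, which keeps uracil out of DNA, fell by 0.79 and 0.62, the repressor E2f6 by 0.63 and 0.49 and Spag5, of the spindle, by 0.42 and 0.69. In mice labelled KO, Cdkn1c read 5.18, 5.58, 4.96 and 5.36 in Th17 recipients, against 5.06, 5.27, 5.33, 4.28 and 4.84 in naive mice. Its response differed from that of WT mice by 2.49 (limma adjusted p = 6.77e-10), while that of Cdt1 differed by −2.87 (adjusted p = 1.9e-10). Between WT Th17 and Th1 recipients 1 of these 79 genes was called, where 3.0% of all genes were. This was Gins2, a partner of Gins1, at 4.30, 4.0, 4.65, 4.44 and 3.96 in Th17 recipients, against 4.15, 3.80, 3.53, 3.47 and 3.35 in Th1 recipients (difference 0.61, limma adjusted p = 0.0145).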

How the data were processed

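Spinal cord RNA of 24 mice was measured on Affymetrix GeneChips, 1 array a mouse, read on the log2 scale. The authors deposited log2 values of 45118 probe sets made by RMA, which corrects background, brings arrays to a common distribution and summarises probes. The RMA version is not given in the sources used here. Such values cannot show whether total RNA output shifted between groups, and no detection call or depth comes with them, so that the number of arrays limits precision. Columns without a sample numbered 0. Groups were taken from the labels.

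Genes were named through the platform annotation (28898 probe sets with 1 symbol, 551 with several and 15669 not listed). Each of 17097 genes was represented by its single-symbol probe set with the highest mean. The 48 members had 83 probe sets, and 24 members had more than 1. Of the 35 other sets 28 averaged below the lowest array median, 9 differed by over 0.5 between WT Th17 recipients and naive mice and 21 by at most 0.2. The linear models were those of limma 3.58.1 (lmFit, eBayes; R 4.3.3), fitted on all 24 arrays, without a block, for 7 comparisons, two-sided, with Benjamini-Hochberg adjustment over all genes and calls under 0.05. The script was tested on simulated data. Promoter words were counted in Python 3.11.15. Labels and methods describe separate mice, and p-values measure the spread between them. The members and lists were chosen with earlier results of these data known. Genes named were, from each role, at most 4 members of lowest adjusted p in WT Th17 recipients, members not called there, Mki67, Top2a, Cdk1, the Mcm2 to Mcm7 subunits and E-type cyclins, and of other cell cycle genes the 3 largest increases and decreases and each called inhibitor and D-type cyclin. Other names were chosen after their values were seen. Alternatives changed the probe set rule, dim gene filter, scaling, variance model, blocks, test and the arrays kept.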

Additional observations from a re-analysis of the deposited data

Results flagged for a closer look

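A gap between 1 mouse and the rest of its group, past Dixon's critical value, was seen in 17 of 245 sets of 4 or 5 mice (the 48 members and their median in each of 5 groups), where chance gives about 1 in 20. Among KO Th17 recipients these were Mki67 at 2.86 in mouse 3 (others 3.16 to 3.17) and Foxm1 at 2.82 in mouse 1 (others 2.98 to 2.99). Among naive KO mice these were Gins1 at 2.68 in mouse 5 (others 2.95 to 3.05), Mcm3 at 3.63 in mouse 1 (others 3.12 to 3.25), Nusap1 at 3.06 in mouse 4 (others 2.68 to 2.75) and Cdc20 at 3.33 in mouse 5 (others 3.15 to 3.18). Among WT Th17 recipients these were Ccnb2 at 4.08 in mouse 4 (others 4.80 to 5.00) and Cdca3 at 5.02 in mouse 3 (others 3.55 to 3.95). Among WT Th1 recipients these were Cdc6 at 3.19 in mouse 1 (others 2.67 to 2.77), Mcm3 at 4.71 in mouse 3 (others 4.34 to 4.41), Cenpa at 3.44 in mouse 1 (others 3.06 to 3.16), Kif2c at 3.67 in mouse 3 (others 3.14 to 3.22) and Kif4 at 3.09 in mouse 4 (others 3.34 to 3.42). Among naive WT mice these were Ccnb2 at 3.42 in mouse 1 (others 3.18 to 3.24), Ccne2 at 2.59 in mouse 1 (others 3.01 to 3.11), E2f1 at 3.85 in mouse 5 (others 3.80 to 3.81) and Aurkb at 2.62 in mouse 5 (others 2.90 to 2.91). Most of these values lie near background, and the gaps fall on different mice.

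The response to Th17 transfer, recipients minus naive mice, differed between genotypes for 36 members by limma's test of that difference, each smaller in KO than in WT mice. The differences of the responses, KO minus WT on the log2 scale, were Mki67 (-3.54), Top2a (-3.30), Cdk1 (-2.89), Ccna2 (-2.66), Ccnb2 (-1.43), Melk (-0.55), Gins1 (-1.08), Mcm2 (-0.80), Mcm3 (-1.24), Mcm4 (-0.70), Mcm5 (-1.93), Mcm6 (-2.09). For the spindle, checkpoint and nucleotide genes and the rest they were Mcm7 (-1.09), Pcna (-0.47), Rrm1 (-0.46), Rrm2 (-1.81), Tyms (-1.31), Tk1 (-0.90), Aurka (-0.84), Plk1 (-0.91), Bub1 (-0.71), Bub1b (-2.04), Mad2l1 (-1.44), Ttk (-0.51), Birc5 (-2.16), Cenpe (-1.19), Cenpf (-1.08), Kif11 (-0.69), Kif20a (-0.73), Kif2c (-0.70), Tpx2 (-1.45), Nusap1 (-1.37), Prc1 (-1.56), Cdc20 (-1.32), Ube2c (-3.30) and Cdca3 (-1.38). KO recipients and naive KO mice shared no plate row, and with a plate row term 21 members passed, where 3973 of 17097 genes did, against 5479 without it.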

How the results depend on the processing

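Counts of members kept within 1.5 times under most alternatives, with these exceptions. Leaving out dim genes kept 7 members, of which 6 were higher in Th17 and 6 in Th1 recipients than in naive WT mice, and 6 lower in KO than in WT Th17 recipients and in the test of responses. With a 2-fold threshold, 24, 19, 23 and 23 remained past it in these 4 comparisons. Centring arrays on their median gave 3 and 4 lower members in Th17 and Th1 recipients and 2 higher in KO against WT Th17 recipients. Centring on ribosomal protein genes gave 6 and 8 lower, 21 higher in Th1 recipients, 5 higher in KO against WT Th17 recipients and 4 higher in the test of responses. Quantile normalization gave 2 lower in Th1 recipients. The plate row term gave 21 in the test of responses. Between Th17 and Th1 recipients a variance trend, array weights and the methods' t-test without adjustment gave 1 member each, and leaving out 1 array gave 0 to 2. Without adjustment, that t-test gave 1 higher and 2 lower in KO recipients against naive KO mice and 1 higher and 1 lower between naive mice, and the exact Mann-Whitney test gave 1 lower in each. Over all genes that t-test called 0 after adjustment and 707 before it in KO recipients against naive KO mice. Before adjustment it called 1843 of 17097 genes between Th17 and Th1 recipients and 1126 between naive mice. The exact Mann-Whitney test then called 521 in KO recipients against naive KO mice and 857 between naive mice. Leaving out 1 array gave 39 to 41 in Th17 recipients, 38 to 40 in Th1 recipients, 37 to 41 lower in KO against WT Th17 recipients and 34 to 37 in the test of responses. Beside the calls already named, leaving out 1 mouse ended those of Ttk and Kif4 between KO and WT Th17 recipients (0.0853 and 0.0820 at the highest adjusted p) and of Ttk and Rrm1 in the test of responses (0.0917 and 0.0657). Deviations of same-numbered mice from their group means correlated at −0.25 to 0.44. Mice of different numbers were not compared for reference, so that these values cannot settle whether numbers pair the mice. With a replicate block the counts were 41, 40, 0, 0, 0, 40 and 39 over the 7 comparisons.

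Signs turned are given here for values called with or without the alternative, and values called in neither also turned for some members under both centrings. Centring on ribosomal protein genes turned the sign in Th17 recipients against naive WT mice of Ccne2 -0.45, Cdkn3 -0.11, E2f1 -0.38, Foxm1 -0.37, Melk -0.013, Cdc6 -0.25, Rrm1 -0.073, Aurkb -0.073, Ttk -0.056, Cdca8 -0.049 and Kif4 -0.17. In Th1 recipients it turned Ccne2 -0.50, Cdkn3 -0.18, Melk -0.14, Cdc6 -0.41, Cdc45 -0.29, Rrm1 -0.23, Aurkb -0.11, Ttk -0.17, Cdca8 -0.20, Cenpa -0.47, Kif11 -0.062, Kif20a -0.057, Kif2c -0.0065 and Kif4 -0.077. Between KO and WT Th17 recipients it turned Ccne1 0.39, Ccne2 0.37, E2f1 0.35, Chek1 0.42, Rrm1 0.022, Ttk 0.062 and Kif4 0.17, and in the test of responses Ccne2 0.36, E2f1 0.40, Chek1 0.46, Pcna 0.021 and Rrm1 0.028. Median centring turned Chek1 between KO and WT Th17 recipients (0.23). The mean of all probe sets turned Cenpa in Th17 recipients (0.55), between KO and WT Th17 recipients (−0.52) and in the test of responses (−0.54), and E2f1 in Th1 recipients (0.20). Without shared probe sets Tyms was 0.0022 between KO and WT Th17 recipients. The cause was not tested.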
